A study of Solanum lycopersicum with 24 samples.

Results

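The sympodial inflorescence meristem of the tomato (Solanum lycopersicum) mutant slful was compared with the vegetative meristem of the same mutant. The comparison takes 3 libraries of slful at SFIM, the floral meristem with its neighbouring inflorescence meristem on the first sympodial shoot, against 3 libraries of slful at VM, the vegetative meristem, so 6 of the 24 libraries of the series, and all 34075 genes of the deposited table. The libraries were chosen by their genotype and stage labels and by no measured value. In the deposited legend the mutant is ful1/ful2/mbp10/mbp20, named for 4 MADS-box genes of the FRUITFULL-like (FUL-like) group. Both stages carry all of these alleles. What kind of mutations they are is not given in the sources used here. Wild-type plants (WT) at SFIM and VM, 3 libraries each, are set beside the mutant where the change of stage itself was tested for a difference between genotypes. Each library pooled 30 to 60 meristems from greenhouse plants, so a value is a mean over meristems and not that of 1 plant, and the labels call the 3 samples of a group biological replicates.

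A tomato shoot first makes leaves from a vegetative meristem. At flowering that meristem ends in a floral meristem while an inflorescence meristem forms beside it, and growth goes on from a sympodial shoot that arises in a leaf axil and repeats the same program. MADS-box factors of the FUL, SOC1 and SEPALLATA groups act in this switch together with the mobile flowering signal SFT, its antagonist SP and the APETALA2 factors that hold flowering back. YABBY and class I KNOX factors mark organ primordia and the undifferentiated meristem.

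Values are RPKM, reads per kilobase of gene scaled to the mapped reads of each library, which allow levels to be compared between genes. Fold changes are log2 of SFIM over VM, taken by limma on log2(RPKM + 0.5). The added 0.5 makes the change of low genes appear smaller than it is. A gene is called when its Benjamini-Hochberg adjusted p over all tested genes is under 0.05. The deposited tables give no symbol for most loci. A locus without a deposited description carries the symbol under which known tomato genes list it, and only where RefSeq has that symbol on the same chromosome, which checks the chromosome and not the locus itself. Depth was 29.36 to 30.37 M (mega) reads in the 6 slful libraries. The first principal component of the 12 slful and WT libraries at both stages held 76.3% of the variance and separated SFIM from VM. The second held 5.39% and separated slful from WT. The median SD of a gene's log2 values between replicates was 0.091 in slful SFIM and 0.079 in slful VM.

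The genes written in the slful genotype were still transcribed and were higher at SFIM. FUL1 (Solyc06g069430, described as FRUITFULL-like MADS-box 1) had 8.55, 8.89 and 9.38 RPKM in slful SFIM against 1.13, 1.71 and 2.13 RPKM in slful VM. FUL2 (Solyc03g114830) had 17.7, 16.4 and 14.9 RPKM in slful SFIM against 7.07, 7.14 and 8.84 RPKM in slful VM. MBP20 (Solyc02g089210), a MADS-box factor of the same family, had 78.7, 78.2 and 77.9 RPKM in slful SFIM against 14.3, 13.8 and 14.3 RPKM in slful VM. All SFIM libraries lay above all VM libraries for each of these loci. The log2 fold changes were 2.16 for FUL1 (SE 0.14 with adjusted p = 4.43e-08), 1.04 for FUL2 (SE 0.10 with adjusted p = 1.22e-06) and 2.43 for MBP20 (SE 0.06 with adjusted p = 3.12e-12). MBP10 (Solyc02g065730) had too few reads to be tested, with 36 reads over the slful SFIM libraries and 2 over the slful VM libraries, a ratio of 18.3 (95% exact interval 4.71 to 157, counting error only). Without knowledge of the mutations, these levels do not check the genotype labels. In bulk samples a lower number of cells of 1 type and less RNA per cell cannot be told apart, here and for every gene below.

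Of 18097 genes tested, 8211 (45.4%) were called in slful, 3430 (19%) of them higher and 4781 (26.4%) lower at SFIM, as shares of the genes tested. Past 2-fold, 1347 genes (7.44%) were called, 714 (3.95%) higher and 633 (3.5%) lower. In 1340 of the 1347 the 3 SFIM libraries lay on one side of the 3 VM libraries. That follows largely from choosing genes by adjusted p and fold on the same values, so it is no separate evidence. The share over all tested genes is not given here. Large changes leaned upward, with 219 genes higher and 107 lower past 4-fold, 83 and 20 past 8-fold, and 37 and 4 past 16-fold. The median log2 fold change of all tested genes was -0.05. The split of the calls depended on the scaling: 41.8% of them were higher as deposited and 52.5% after trimmed-mean scaling (4234 higher and 3833 lower), which moved the median to 0.00. With limma voom on recovered reads it was 50.8% (4143 higher and 4011 lower).

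**Figure D1:**
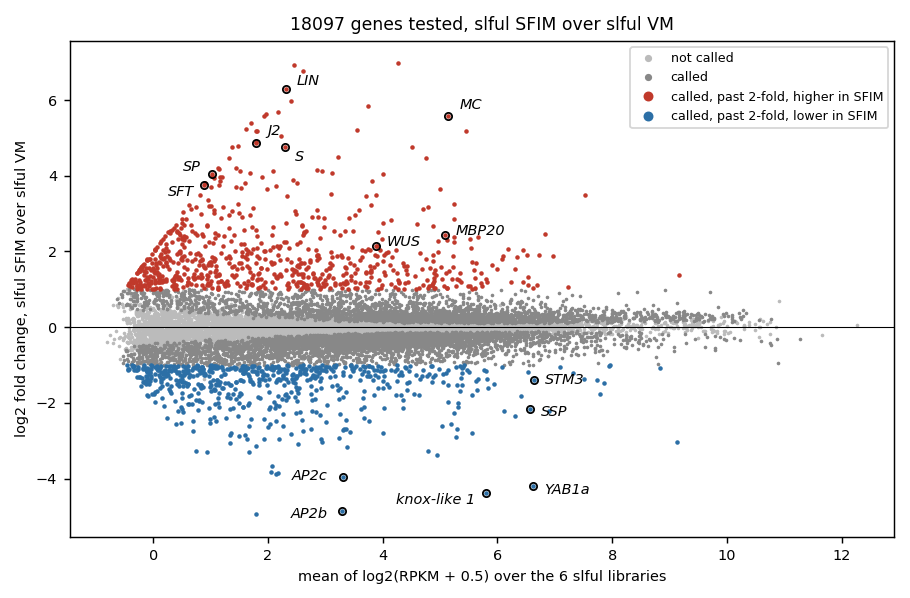
Log2 fold change of slful SFIM over slful VM (vertical axis) against the mean log2(RPKM + 0.5) of the 6 libraries (horizontal axis) for the 18097 tested genes. The 714 genes called higher past 2-fold are red, the 633 called lower are blue, and the labelled genes include MC, LIN and J2 at the upper edge and APETALA2b (AP2b), APETALA2c (AP2c) and YAB1a at the lower edge.

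The floral MADS-box genes of the SEPALLATA, AP1 and AGL6 groups rose. All 8 listed members were tested and all 8 were called higher past 2-fold, against 3.95% of all tested genes, with a median log2 fold change of 3.50, or 3.86 with the members at 0 reads in VM put at their lower bound. All but Macrocalyx passed the filter on low values, 0.5 RPKM in 3 libraries, only through SFIM libraries, so they could hardly come out lower. The list was also chosen with earlier results of these data known, so the count is no independent evidence of a direction. Macrocalyx (MC, Solyc05g056620), the AP1-like gene of sepal and pedicel development, had 232, 247 and 253 RPKM in slful SFIM against 4.96, 3.95 and 5.07 RPKM in slful VM. LIN (Solyc04g005320; CMB1 in RefSeq), a SEPALLATA gene that acts in inflorescence branching, had 38.3, 47.7 and 45.0 RPKM in slful SFIM against 0.109, 0 and 0.0737 RPKM in slful VM. No SFIM library came near the VM libraries for either gene, and the log2 fold changes were 5.57 for MC (SE 0.21 with adjusted p = 2.19e-10) and 6.30 for LIN (SE 0.11 with adjusted p = 8.49e-14). J2 (Solyc12g038510) and EJ2 (Solyc03g114840), SEPALLATA genes of pedicel abscission and of sepal and inflorescence growth, averaged 18.3 ± 0.563 and 11.5 ± 0.668 RPKM in slful SFIM against 0.146 ± 0.0972 and 0.186 ± 0.0809 RPKM in slful VM (SD, n = 3), for log2 fold changes of 4.87 (SE 0.14 with adjusted p = 1.17e-11) and 4.14 (SE 0.11 with adjusted p = 7.85e-12).

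The other members were low at SFIM and near 0 at VM. TM29 (Solyc02g089200), another SEPALLATA gene, had 2.74, 2.12 and 3.39 RPKM in slful SFIM, and only 2 reads over the slful VM libraries, a ratio of 155 (95% exact interval 42.5 to 1285). AGL6 (Solyc01g093960, deposited as a MADS box transcription factor) had 2.79, 3.01 and 5.12 RPKM in slful SFIM against 0.033, 0 and 0.134 RPKM in slful VM, a change of 2.86 on the log2 scale (SE 0.19 and adjusted p 6.08e-08). RIN (Solyc05g012020), known from fruit ripening, and TM5 (Solyc05g015750), a floral organ SEPALLATA gene, averaged 0.705 ± 0.0516 and 0.962 ± 0.257 RPKM in slful SFIM and had 0 reads in every slful VM library. Against 3 reads per library, RIN was at least 12-fold higher and TM5 at least 10.8-fold higher in slful SFIM.

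Of 8 listed B and C class loci and their relatives, 3 passed the filter on low values and 5 did not, each with at most 9 reads over the 3 libraries of either stage. Tomato AGAMOUS 1 (TAG1, Solyc02g071730), the C class gene of stamens and carpels, had 9.36, 10.5 and 5.75 RPKM in slful SFIM against 0.0855, 0.0286 and 0.0867 RPKM in slful VM and rose by 3.96 on the log2 scale (SE 0.21 and adjusted p 4.21e-09). TM6 (Solyc02g084630), a B class gene, rose to 23.0 ± 0.615 RPKM in slful SFIM, against 18.5 ± 0.937 RPKM in slful VM, a change of 0.30 on the log2 scale (SE 0.06 and adjusted p 0.000797). MBP3 (Solyc06g064840), of the ovule group, fell to 21.4 ± 4.4 RPKM in slful SFIM, against 45.9 ± 4.63 RPKM in slful VM, a change of -1.10 on the log2 scale (SE 0.16 and adjusted p 0.000102).

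The SOC1- and SVP-like MADS genes did not move together. Of 5 tested, 2 rose, 2 fell past 2-fold and 1 did not pass, with a median log2 fold change of -0.02. Over all tested genes 19% rose and 3.5% fell past 2-fold. STM3 (Solyc01g092950, deposited as a MADS-box protein), a SOC1-like gene, had 63.3, 61.5 and 57.3 RPKM in slful SFIM against 152, 165 and 166 RPKM in slful VM, so every SFIM library was lower (log2 fold change -1.40, SE 0.07, adjusted p = 2.69e-09). Its relative TM3 (Solyc01g093965) went the other way, at 34.4 ± 3.09 RPKM in slful SFIM against 22 ± 2.92 RPKM in slful VM (log2 fold change 0.64, SE 0.13, adjusted p = 0.00108). TM3 and STM3 are close relatives, and reads could be split between them. MBP18 (Solyc03g006830), the third SOC1-like gene, had 23.7 ± 1.04 RPKM in slful SFIM against 12.7 ± 1.8 RPKM in slful VM (log2 fold change 0.88, SE 0.08, adjusted p = 1.64e-06). J (JOINTLESS, Solyc11g010570), the SVP-like gene of the pedicel joint, had the highest mean of the MADS genes named at both stages, with 323, 328 and 332 RPKM in slful SFIM against 331, 335 and 332 RPKM in slful VM. Those ranges overlapped, and the log2 fold change of -0.02 (SE 0.05) did not pass (adjusted p = 0.708).

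**Figure D2:**
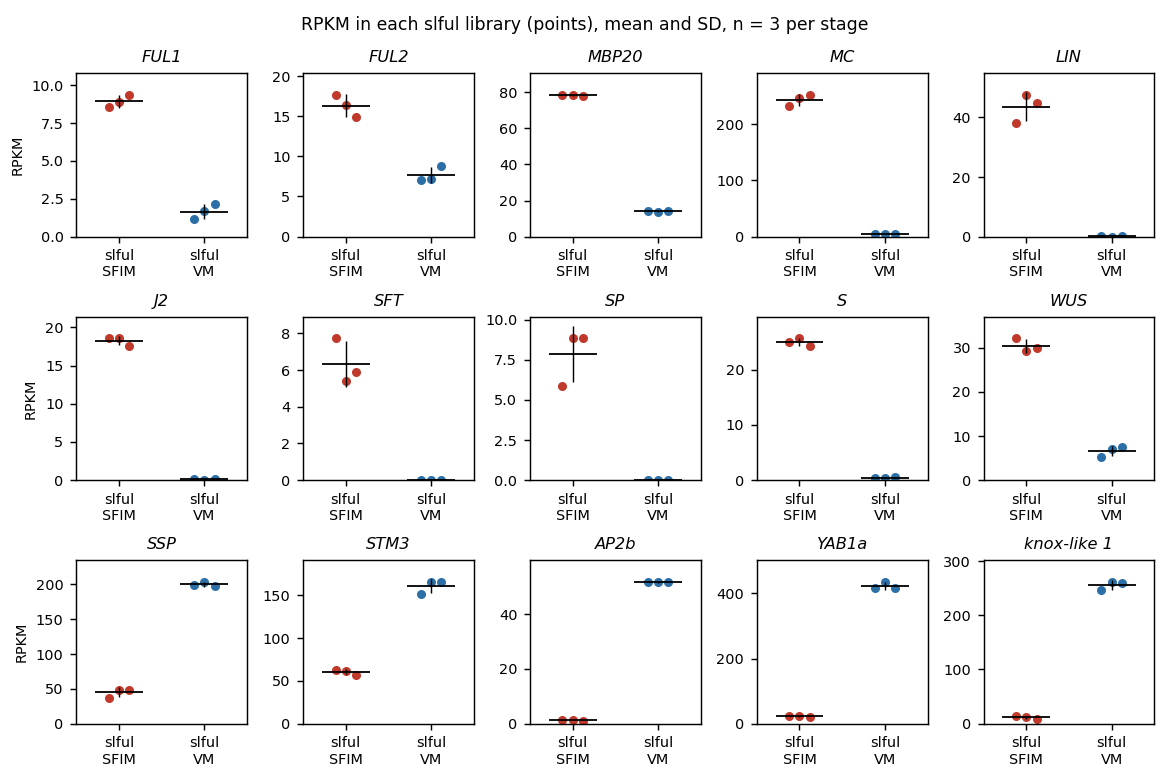
RPKM of 15 genes in each slful library, with 3 SFIM libraries (red) left of 3 VM libraries (blue), the mean as a horizontal bar and the SD as a vertical one; each panel has its own axis from 0. In no panel do the groups overlap, and SFT and SP have 0 reads in every VM library.

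The flowering signal and its antagonist were both detected at SFIM alone among these 2 stages in slful. SFT (Solyc03g063100), the tomato FT gene, had 7.74, 5.38 and 5.87 RPKM in slful SFIM and 0 reads in each slful VM library, at least 34-fold higher against 3 reads per library. SP (SELF PRUNING, Solyc06g074350), the TFL1-like gene that keeps sympodial meristems from ending early, had 5.84, 8.84 and 8.85 RPKM in slful SFIM and 0 reads in each slful VM library, at least 68.7-fold higher. Both were called (adjusted p = 4.71e-10 for SFT and 8.71e-06 for SP). SSP (Solyc02g083520; SPGB in RefSeq), the bZIP partner of SFT in the florigen complex, went down, with 36.5, 49.0 and 49.0 RPKM in slful SFIM against 199.7, 204 and 197 RPKM in slful VM (log2 fold change -2.16, SE 0.10, adjusted p = 1.39e-09). SP5G and SP9D, other members of the same gene family, had 0 reads in all 6 libraries, which allows up to 3 reads in each.

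The genes that shape the inflorescence showed several sizes of change. S (COMPOUND INFLORESCENCE, Solyc02g077390), a WOX homeobox gene, had 25.0, 25.7 and 24.3 RPKM in slful SFIM against 0.428, 0.337 and 0.558 RPKM in slful VM (log2 fold change 4.77, SE 0.15, adjusted p = 1.92e-11). AN (ANANTHA, Solyc02g081670), the F-box gene of floral identity, had 3.62, 2.27 and 2.04 RPKM in slful SFIM against 0.0481, 0 and 0 RPKM in slful VM, a ratio of 164 on 2 VM reads (95% exact interval 44.9 to 1357). Its partner FA (FALSIFLORA, Solyc03g118160), the tomato LEAFY gene, was already high at VM and moved little, with 89.4, 96.9 and 82.1 RPKM in slful SFIM against 77.6, 72.0 and 67.3 RPKM in slful VM (log2 fold change 0.31, SE 0.07, adjusted p = 0.00307), a call that was lost in the fit of all 24 libraries. The BOP genes, co-activators of leaf and inflorescence form, split: BOP1 (Solyc04g040220) rose by 0.95 on the log2 scale (SE 0.13 and adjusted p 7.11e-05), while BOP3 (Solyc10g079750) fell to 3.51 ± 0.127 RPKM in slful SFIM, against 16.2 ± 0.625 RPKM in slful VM (log2 fold change -2.06, SE 0.09, adjusted p = 8.99e-10). The call for BOP2 (log2 fold change -0.33, adjusted p = 0.0386) was lost in 11 of 25 alternatives. In the whole list of 7 loci, 4 rose and 3 fell, where 19% of all tested genes rose and 26.4% fell.

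Of 5 APETALA2-like genes tested, 3 fell past 2-fold and 2 rose, with a median log2 fold change of -2.53. Over all tested genes 3.5% fell past 2-fold and 19% rose. APETALA2b (Solyc02g064960) had 1.42, 1.40 and 1.14 RPKM in slful SFIM against 51.9, 51.6 and 51.6 RPKM in slful VM. APETALA2c (Solyc02g093150) had 2.18, 1.84 and 2.01 RPKM in slful SFIM against 39.0, 39.7 and 36.1 RPKM in slful VM. Every SFIM library was far below every VM library, and the log2 fold changes were -4.85 for APETALA2b (SE 0.12 with adjusted p = 2.81e-12) and -3.95 for APETALA2c (SE 0.15 with adjusted p = 1.53e-10). AP2a (Solyc03g044300), known from fruit ripening, was lower in level but fell as well, to 0.0832 ± 0.0603 RPKM in slful SFIM against 2.88 ± 0.561 RPKM in slful VM (log2 fold change -2.53, SE 0.15, adjusted p = 2.17e-08). It passed the filter on low values through VM libraries alone, so it could hardly come out higher, and its change is the list median. This list too was chosen with earlier results of these data known, so its count is no independent evidence of a direction. AP2d (Solyc11g072600) rose to 30.4 ± 3.49 RPKM in slful SFIM, against 9.45 ± 0.572 RPKM in slful VM (log2 fold change 1.63, SE 0.13, adjusted p = 2.4e-07). Of 4 SBP-box genes, which age-dependent microRNAs restrain in other plants, 3 fell and 1 did not pass, where 26.4% of all tested genes fell. Solyc05g015840 and Solyc10g078700 fell with log2 fold changes of -0.57 and -0.48, short of 2-fold. CNR (Solyc02g077920) had 1.47, 1.41 and 1.76 RPKM in slful SFIM against 4.46, 4.34 and 4.11 RPKM in slful VM (log2 fold change -1.23, SE 0.12, adjusted p = 2.69e-06). All 3 CONSTANS-like loci, of the family of light-dependent flowering factors in Arabidopsis, were low and fell, with a median log2 fold change of -0.99, where 26.4% of all tested genes fell. The call for 1 of them (Solyc02g089520) was lost without slful VM replicate 2, slful VM replicate 3 or slful SFIM replicate 1. Of 6 clock loci 1 rose, 3 fell and 2 did not pass, so 4 of 6 were called where 45.4% of all tested genes were. The clock locus that rose (Solyc04g071990, log2 fold change 0.35) lost its call in 6 of 25 alternatives.

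**Figure D3:**
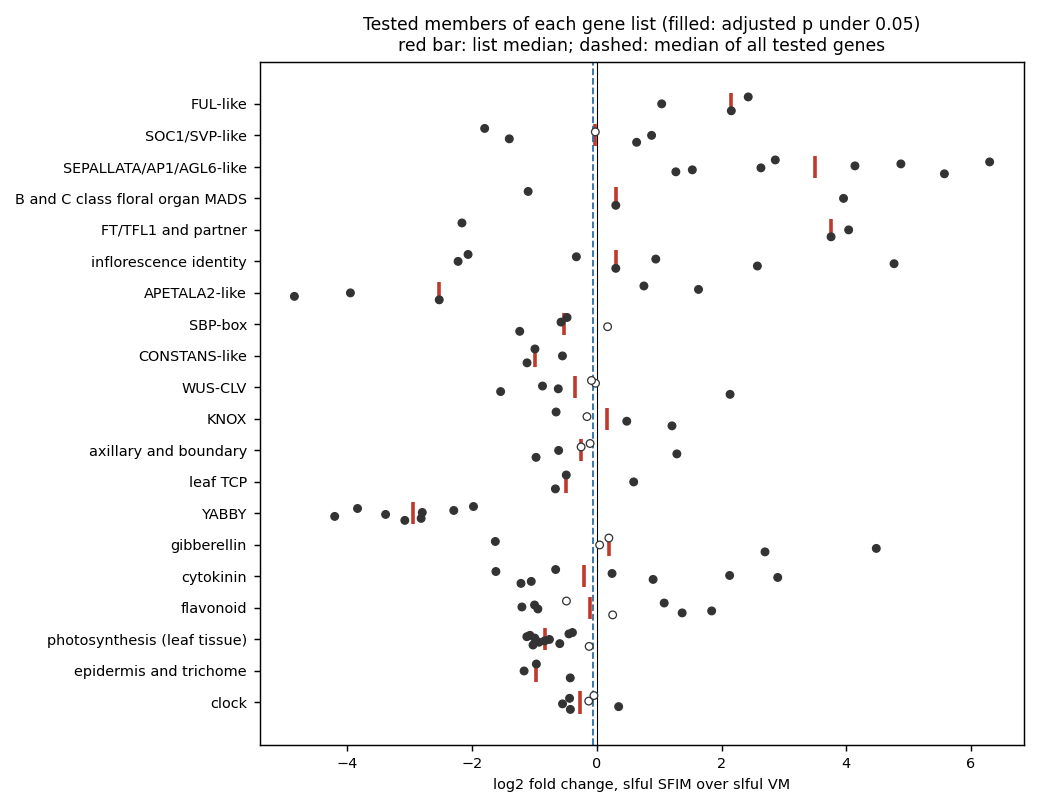
Log2 fold change of slful SFIM over slful VM for each tested member of 20 gene lists, 1 list per row; filled points were called, red bars are list medians and the dashed line is the median of all tested genes (-0.05). All tested SEPALLATA/AP1/AGL6-like members lie right of 0 and all tested YABBY members left of it.

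Genes of the stem cell niche went both ways: of 6 tested, 1 rose, 3 fell and 2 did not pass, where 19% of all tested genes rose and 26.4% fell. One of the falls, that of Solyc06g074060 (log2 fold change -0.62, adjusted p = 0.0296), was lost in 9 alternatives and was -0.18 with the length trend removed. WUS (WUSCHEL, Solyc02g083950), which sustains stem cells from the organizing centre, had 32.2, 29.2 and 30.0 RPKM in slful SFIM against 5.20, 7.09 and 7.53 RPKM in slful VM (log2 fold change 2.14, SE 0.10, adjusted p = 1.86e-09). CLV3 (Solyc11g071380), the peptide gene that limits WUS, had 4.33, 4.92 and 4.59 RPKM in slful SFIM against 14.2, 15.8 and 13.1 RPKM in slful VM (log2 fold change -1.54, SE 0.29, adjusted p = 0.0008). At 282 bases CLV3 is in the shortest length class, of which 21.9% fell past 2-fold. Its log2 fold change ran from -1.62 to -1.12 over the settings. FAB (Solyc04g081590; CLV1 in RefSeq), a receptor kinase for such peptides, fell to 21.9 ± 1.67 RPKM in slful SFIM, against 40.3 ± 1.28 RPKM in slful VM (log2 fold change -0.87, SE 0.07, adjusted p = 2.73e-07), and the receptor-like gene CLV2 did not pass (8.29 ± 0.508 RPKM in slful SFIM against 8.4 ± 0.239 RPKM in slful VM). Of the 4 class I KNOX genes tested, which mark undifferentiated meristem cells, 2 rose, 1 fell and 1 did not pass. TKN1 (Solyc04g077210) rose to 85.7 ± 8.89 RPKM in slful SFIM, against 36.8 ± 2.1 RPKM in slful VM (log2 fold change 1.21, SE 0.08, adjusted p = 7.62e-08). TKN2 (Solyc02g081120), the tomato counterpart of SHOOT MERISTEMLESS, was high at both stages, with 195, 221 and 202 RPKM in slful SFIM against 146, 148 and 147 RPKM in slful VM (log2 fold change 0.48, SE 0.06, adjusted p = 3.8e-05). A gene deposited as knox-like 1 (Solyc06g072480) behaved unlike both, at 14.4, 13.0 and 8.63 RPKM in slful SFIM against 246, 262 and 259 RPKM in slful VM (log2 fold change -4.39, SE 0.19, adjusted p = 7.82e-10).

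Markers of lateral organs were lower at SFIM. All 8 tested YABBY loci, factors that mark the outer side of leaf and floral organ primordia, fell past 2-fold, against 3.5% of all tested genes, with a median log2 fold change of -2.95; INO (Solyc05g005240), the other member, had 0 reads in all 6 libraries. Their summed level was 55.6 to 57.6 RPKM in slful SFIM against 691 to 746 RPKM in slful VM. YAB1a (Solyc01g091010; YABBY1A in RefSeq) gave most of that sum, with 25.1, 22.5 and 20.1 RPKM in slful SFIM against 417, 436 and 415 RPKM in slful VM (log2 fold change -4.20, SE 0.09, adjusted p = 1.35e-12). CRABS CLAW b (Solyc05g012050), a YABBY gene named for carpel development, had 1 read over the slful SFIM libraries and 102 over the slful VM libraries. It passed the filter on low values through VM libraries alone, and the YABBY list too was chosen with earlier results of these data known. YABBY2 (Solyc11g071810) fell to 1.51 ± 0.357 RPKM in slful SFIM, against 16.4 ± 2.25 RPKM in slful VM (log2 fold change -3.08, SE 0.13, adjusted p = 7.24e-10).

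LA (LANCEOLATE, Solyc07g062680), a TCP factor of leaf maturation, fell by 0.66 on the log2 scale (SE 0.13 with adjusted p = 0.00115), and of 3 tested leaf TCP loci 2 fell and 1 rose. Of 11 tested loci of photosynthesis, used as markers of leaf tissue, 10 fell, 3 of them past 2-fold, and 1 did not pass, where 26.4% of all tested genes fell and 3.5% fell past 2-fold. The calls of 3 of the 10 (Solyc02g070970, Solyc03g005770 and Solyc03g005780) were lost in the fit of all 24 libraries. That of Solyc02g070970 was also lost without slful VM replicate 1, slful VM replicate 2 or slful SFIM replicate 2. The summed level of the 11 tested photosynthesis loci was 572 to 671 RPKM in slful SFIM against 1073 to 1207 RPKM in slful VM. None of the 13 listed was at 0 in every library of a stage. These belong to families of near copies, so the level of a single member is uncertain. The 3 tested epidermis loci fell too, 1 of them (Solyc02g080260) not in the fit of all 24 libraries, with sums of 28.5 to 32.8 RPKM in slful SFIM against 53.1 to 56 RPKM in slful VM. The part of leaf, primordium or epidermis tissue in the other falls was not tested. Of 5 tested axillary and boundary loci 1 rose, 2 fell and 2 did not pass, where 45.4% of all tested genes were called. The one that rose, Solyc11g069030, had 57.5 ± 4.87 RPKM in slful SFIM against 23.3 ± 0.939 RPKM in slful VM (log2 fold change 1.28, SE 0.06, adjusted p = 2.38e-09). LS (LATERAL SUPPRESSOR, Solyc07g066250) and GOB (GOBLET, Solyc07g062840), factors of axillary meristems and organ boundaries, fell by 0.97 (SE 0.11 with adjusted p = 1.01e-05) and 0.61 (SE 0.07 with adjusted p = 1.13e-05) on the log2 scale. BRC1a and BRC1b, which hold back axillary buds, had at most 0.805 RPKM in any slful SFIM or VM library, and neither passed.

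Of 11 listed gibberellin loci 5 were tested, 2 of which rose, 1 fell and 2 did not pass. The share called among all tested genes was 45.4%, so this count is no result about the list. GA20ox2 (Solyc06g035530; 20ox-2 in RefSeq), which makes the precursors of active gibberellins, had 11.6, 12.1 and 10.3 RPKM in slful SFIM against 0, 0.0223 and 0.0676 RPKM in slful VM (log2 fold change 4.48, SE 0.13, adjusted p = 1.27e-11). GA20ox1 (Solyc03g006880), of the same enzyme family, had 375 reads over the slful SFIM libraries and 2 over the slful VM libraries, a ratio of 191 (95% exact interval 52.4 to 1579). A gene deposited as Gibberellin 2-oxidase 1 (Solyc02g070430), an enzyme class that inactivates gibberellins, rose along with them, with 20.6, 12.6 and 24 RPKM in slful SFIM against 0.103, 0.129 and 0.183 RPKM in slful VM (log2 fold change 4.89, SE 0.20, adjusted p = 3.18e-10). GA2ox5 (Solyc07g061730), of that class too, fell by 1.63 on the log2 scale (SE 0.20 with adjusted p = 1.94e-05). PRO (PROCERA, Solyc11g011260), the DELLA repressor of the pathway, had 59.9 ± 2.46 RPKM in slful SFIM against 52.3 ± 2.6 RPKM in slful VM and did not pass (adjusted p = 0.0579).

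Of 8 cytokinin loci, 4 rose and 4 fell, where 19% of all tested genes rose and 26.4% fell. The genes of cytokinin breakdown were divided. Cytokinin oxidase4 (Solyc04g080820) had 7.59, 6.41 and 8.44 RPKM in slful SFIM against 0.668, 0.494 and 0.532 RPKM in slful VM (log2 fold change 2.90, SE 0.12, adjusted p = 6.02e-10). Cytokinin oxidase/dehydrogenase 2 (Solyc10g017990) fell to 1.85 ± 0.575 RPKM in slful SFIM, against 4.26 ± 0.161 RPKM in slful VM (log2 fold change -1.05, SE 0.25, adjusted p = 0.004). The call for cytokinin oxidase6 (Solyc12g008900; 3.08, 1.05 and 0.813 RPKM in slful SFIM against 3.37, 4.38 and 4.32 RPKM in slful VM; log2 fold change -1.22, adjusted p = 0.0109) was lost without slful SFIM replicate 3. Tomato Response regulator 16,17 (Solyc06g048930), of the family that cytokinin induces in Arabidopsis, rose to 22.8 ± 3.17 RPKM in slful SFIM, against 4.81 ± 0.38 RPKM in slful VM (log2 fold change 2.13, SE 0.12, adjusted p = 8.29e-09). The loci listed as response regulators did not move together. Solyc03g113720 fell to 32.1 ± 4.53 RPKM in slful SFIM, against 99.2 ± 6.6 RPKM in slful VM (log2 fold change -1.62, SE 0.10, adjusted p = 2.27e-08). Solyc02g071220 and Solyc05g006420 had log2 fold changes of -0.66 and 0.24 (adjusted p = 0.000736 and 0.00862).

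Flavonoid enzymes went both ways. Chalcone synthase 2 (Solyc05g053550), which makes the first flavonoid skeleton, had 46.4, 44.0 and 55.2 RPKM in slful SFIM against 16.4, 17.8 and 21.2 RPKM in slful VM (log2 fold change 1.37, SE 0.11, adjusted p = 5.06e-07). F3H (Solyc02g083860), flavanone 3-hydroxylase, rose to 33.8 ± 4.69 RPKM in slful SFIM, against 9.1 ± 1.76 RPKM in slful VM (log2 fold change 1.84, SE 0.12, adjusted p = 5.51e-08). DFR (Solyc02g085020) and ANS (Solyc08g080040), enzymes on the way to anthocyanins, were low and fell, DFR to 0.134 ± 0.0595 RPKM in slful SFIM, against 0.99 ± 0.429 RPKM in slful VM, and ANS to 0.864 ± 0.14 RPKM in slful SFIM, against 2.25 ± 0.595 RPKM in slful VM (adjusted p = 0.00086 and 0.000283). The calls for both were lost in the fit of all 24 libraries. In all, 8 of 12 listed loci were tested, of which 3 rose, 3 fell and 2 did not pass. Among all tested genes 19% rose and 26.4% fell.

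The other slful libraries were taken between these stages, at TM (the transition meristem) and FIM (the floral and inflorescence meristem of the main shoot). MC averaged 4.66 RPKM at VM, 121 at TM, 253 at FIM and 244 at SFIM, and APETALA2b averaged 51.7, 18.9, 0.756 and 1.32 RPKM at the same stages. FUL1 averaged 1.65 RPKM at VM, 8.9 at TM, 11.3 at FIM and 8.94 at SFIM. SP peaked at TM, with 16.5 ± 9.72 RPKM, against 6.09 ± 4.61 at FIM and 7.84 ± 1.73 at SFIM, a peak within the spread of the TM libraries. CLV3 also had its highest mean at TM, 36.6 ± 6.21 RPKM, and at FIM it had 22.2 ± 7.35 RPKM, so 2 later stages lay above VM and only SFIM below it. The TM and FIM values were deposited in another number format and at depths of 12.93 to 38.73 M reads, and no test crosses to them here.

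**Figure D4:**
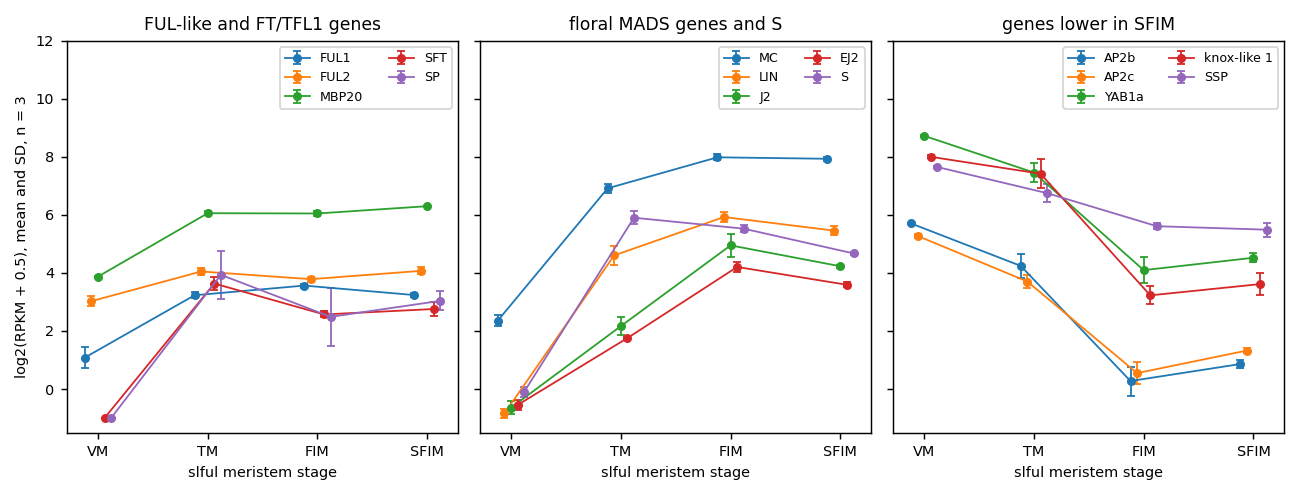
Mean log2(RPKM + 0.5) with SD (n = 3) of 15 genes across the slful stages VM, TM, FIM and SFIM, in 3 panels. LIN, J2, EJ2 and S lie near the bottom of the axis at VM and above their VM level at TM, FIM and SFIM. S is highest at TM, and LIN, J2 and EJ2 are highest at FIM. APETALA2b (AP2b), APETALA2c (AP2c), YAB1a, knox-like 1 and SSP lie lower at FIM and SFIM than at VM.

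Genes with a deposited description were also ranked by their change. A description exists only for 435 genes that the authors had listed as different between slful and WT, so these are not a sample of all genes. Of these, 363 were tested, of which 124 rose and 74 fell, where 19% of all tested genes rose and 26.4% fell. Early nodulin-93 (Solyc12g006680) had 261, 33.7 and 24.5 RPKM in slful SFIM and 0 reads in each slful VM library, at least 545-fold higher, and at least 149-fold higher without slful SFIM replicate 1. A hypoxia-responsive family protein gene (Solyc06g050870) had 83.2, 8.45 and 11.8 RPKM in slful SFIM and likewise 0 reads at VM, at least 163-fold higher, and at least 47.9-fold higher without that library. In both genes slful SFIM replicate 1 stood far above the other SFIM libraries, and both calls were lost with limma voom on recovered reads, where VM is likewise at 0 in all libraries. Replicate 1 was over 2-fold above both its fellows in 35 of the 1347 genes past 2-fold, against 1 gene for each of the other slful SFIM libraries. The 35 include a wound-responsive family protein gene (Solyc07g063640), with 63.4, 23.3 and 15.6 RPKM in slful SFIM against 3.29, 2.2 and 1.11 RPKM in slful VM, and a hypothetical protein gene (Solyc02g090120), with 63.4, 12.1 and 11.4 RPKM in slful SFIM against 0.883, 1.27 and 0.895 RPKM in slful VM. Without that library 1333 of the 1347 genes were still called.

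More even increases were seen in a Patatin gene (Solyc08g006860), a lipid acyl hydrolase, with 11.7, 13.7 and 17.5 RPKM in slful SFIM against 0.0735, 0.0246 and 0 RPKM in slful VM (log2 fold change 4.78, SE 0.18, adjusted p = 2.19e-10). An Inositol oxygenase gene (Solyc12g008650), of cell wall sugar supply, had 34.9, 32.1 and 39.3 RPKM in slful SFIM against 2.37, 1.21 and 1.44 RPKM in slful VM (log2 fold change 4.08, SE 0.18, adjusted p = 1.04e-09). A RING/U-box gene (Solyc06g007230) had 412 reads over the slful SFIM libraries and 1 over the slful VM libraries, a ratio of 419 (95% exact interval 74.7 to 16576). A Sn-1 protein gene (Solyc04g007790), a Cotton fiber protein gene (Solyc03g063550), a Rossmann-fold gene (Solyc01g091660), a PDDEXK-like gene (Solyc02g078150) and a glycine-rich cell wall protein gene (Solyc09g092700) rose as well, by log2 fold changes of 4.15, 4.12, 3.72, 3.65 and 3.35 in that order. Among loci with neither a description nor a place in the lists, Solyc09g014525 and Solyc01g067540 had the largest increases, with log2 fold changes of 6.97 and 6.78.

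The largest decreases among described genes, beyond the APETALA2 and knox-like genes, included 3 cytochrome P450 genes, a superfamily of oxidative enzymes. Solyc01g108210 had 0.138, 0.0897 and 0.162 RPKM in slful SFIM against 15.3, 19.2 and 22.3 RPKM in slful VM (log2 fold change -4.93, SE 0.17, adjusted p = 8.38e-11). Solyc03g114940 had 335, 144 and 158 RPKM in slful SFIM against 2022, 1741 and 1173 RPKM in slful VM (log2 fold change -3.02, SE 0.29, adjusted p = 1.64e-06). Solyc04g071800 fell by 2.04 on the log2 scale. Other described genes that fell were 2 glucan endo-1,3-beta-glucosidase-like genes (Solyc12g040860 and Solyc06g076170, of callose breakdown), a COBRA-like gene (Solyc03g114890), a glycine-rich cell wall protein gene (Solyc12g098225) and a Caffeoyl-CoA O-methyltransferase gene of lignin synthesis (Solyc09g082660), with log2 fold changes of -3.28, -2.61, -2.33, -2.28 and -2.23 in that order. An Avr9/Cf-9 rapidly elicited protein gene (Solyc03g120930), a Poly [ADP-ribose] polymerase gene (Solyc05g005290), a bHLH factor gene (Solyc06g072520) and an F-box gene (Solyc01g099970) had log2 fold changes of -2.65, -2.49, -2.10 and -2.02. Among loci with neither a description nor a place in the lists, Solyc01g014100 and Solyc12g045035 fell the most, by 3.89 and 3.84 on the log2 scale.

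Lists drawn by word from those descriptions moved both ways. Of 18 tested defence genes 3 rose, 3 fell and 12 did not pass, and of 22 transcription factor genes 13 rose, 10 of them past 2-fold, and 2 fell. Over all tested genes 19% rose, 3.95% past 2-fold, and 26.4% fell. Of 8 MADS-box genes 6 rose and 1 fell, of 7 photosynthesis genes 1 rose and 2 fell, and of 5 cytochrome P450 genes 2 rose and 3 fell. Of 4 cytokinin genes 2 rose and 2 fell, of 4 cell wall genes 1 rose and 1 fell, of 4 transport genes 1 rose and 2 fell, of 4 lipid transfer and cuticle genes 1 fell, of 2 histone and DNA replication genes 1 rose and 1 fell, and the 1 heat shock gene fell. Of 6 terpenoid genes 0 were called by limma, 0 had an unadjusted p under 0.05 and 0 were called by voom. Among them Phellandrene synthase (Solyc08g005670) ranged from 1.54 to 6.37 RPKM among the slful SFIM libraries alone. Since the authors chose these genes for a difference between genotypes, the counts are no independent evidence of a direction.

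A set of genes had no reads at one stage. In 43 genes all slful VM libraries had 0 reads and each slful SFIM library at least 10, and in 3 genes the reverse held. The 43 include SFT, SP, RIN, TM5, Early nodulin-93, the hypoxia-responsive gene, a Peroxidase gene (Solyc10g076220, 145 reads over the slful SFIM libraries), a 2S albumin gene (Solyc08g080490, 115 reads) and a Sucrose synthase gene (Solyc07g042520, 109 reads). In 23 of the 43 WT met the same rule.

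Called neighbours were counted, with no expected number to set beside the count. Runs of at least 3 neighbouring tested loci, all called past 2-fold in one direction, numbered 10 and held 32 loci, with 8 runs higher and 2 lower at SFIM. The longest was 5 loci on chromosome 7 (Solyc07g054760 to Solyc07g054800), with log2 fold changes from 1.20 to 2.22 and a member deposited as Wound induced protein. A run of 3 on chromosome 8 (Solyc08g074680 to Solyc08g074683) includes a Polyphenol oxidase gene, a browning enzyme whose near copies lie side by side, and reads could be split among them. Each of the 32 loci was called in the same direction in WT.

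The change of stage varied with gene length, as recovered from the values. Tested genes of at most 300 bases (319 genes) had a median log2 fold change of -0.58 in slful and -0.62 in WT, those of 300 to 500 bases -0.21 and -0.27, and those of 1000 to 2000 bases -0.03 and -0.04. Among the shortest class, 21.9% fell past 2-fold in slful. With each library's trend on length removed, 1314 of the 1347 genes past 2-fold were still called, and the share of higher calls was 53.7%.

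The same stages were compared in WT, with no library shared between the 2 comparisons. In WT 8575 genes (47.4%) were called, 3505 (19.4%) higher and 5070 (28%) lower. Of the 1347 slful genes past 2-fold, 1338 had the same direction in WT, 1277 were also called there, and 1098 were past 2-fold in both, which is 81.5% of the slful list and 73.2% of the 1500 WT genes past 2-fold (8.29%). Across the 18097 tested genes, which are not independent replicates, the log2 fold changes had a Pearson correlation of 0.93. The test of the difference itself, the genotype by stage interaction, called 25 genes (0.138%), 9 (0.0497%) with a more positive and 16 (0.0884%) with a more negative change in slful. In 14 (0.0774%) the difference was past 2-fold, 6 (0.0332%) positive and 8 (0.0442%) negative. The change was smaller in slful than in WT in 14 of the 25 and larger in 11. The count of 25 was 4 in the fit of all 24 libraries and 16 with voom. With 1 library left out it ran from 8 to 35: it was 8 without slful VM replicate 2, 10 without slful VM replicate 3, 9 without WT VM replicate 1, and 16 without replicate 3 of slful SFIM or of WT SFIM.

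MBP20 was one of those 25: it had 78.3 ± 0.39 RPKM in slful SFIM and 14.1 ± 0.267 RPKM in slful VM, against 58 ± 5.52 RPKM in WT SFIM and 5.41 ± 0.14 RPKM in WT VM. Its level was higher in slful at both stages, while its stage change was smaller by 0.87 on the log2 scale (SE 0.09 with adjusted p = 0.00108). APETALA2b, equal at VM in both genotypes at 51.7 RPKM, stood at 1.32 ± 0.157 RPKM in slful SFIM against 0.292 ± 0.169 RPKM in WT SFIM, a fall that was smaller in slful by 1.21 on the log2 scale (SE 0.17 with adjusted p = 0.0129). CNR fell in slful, averaging 1.55 RPKM in slful SFIM and 4.3 RPKM in slful VM, and did not pass in WT, averaging 1.94 RPKM in WT SFIM and 2.23 RPKM in WT VM (interaction -1.08, SE 0.17, adjusted p = 0.0313). MBP18 rose less in slful than in WT (interaction -0.67, SE 0.12, adjusted p = 0.0448). The interaction passed in 24 of 25 settings for MBP20, 21 for APETALA2b, 13 for CNR and 9 for MBP18, and all 4 were lost in the fit of all 24 libraries. FUL1 averaged 8.94 ± 0.418 RPKM in slful SFIM and 1.65 ± 0.498 RPKM in slful VM, against 22 ± 1.97 RPKM in WT SFIM and 2.22 ± 0.235 RPKM in WT VM. The interaction did not pass for FUL1 (-0.89, adjusted p = 0.15) or FUL2 (-0.40, adjusted p = 0.438), which does not show that their changes were alike.

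On the scale with 0.5 added, the largest interaction among the genes named was that of the 12-like gene of the glucan endo-1,3-beta-glucosidase family (Solyc12g040860). It had 0.649, 0.458 and 0.472 RPKM in slful SFIM against 11.5, 8.89 and 8.29 RPKM in slful VM, whereas WT averaged 0.0206 ± 0.0202 RPKM at SFIM and 0.152 ± 0.0214 RPKM at VM. The difference in log2 fold change was -2.96 (SE 0.21 with adjusted p = 4.26e-05). With limma voom on recovered reads the difference was -1.57 and did not pass (adjusted p = 0.817), and there the differences of Calmodulin-like 41 (Solyc03g044900, -4.55) and of a Poly [ADP-ribose] polymerase gene (Solyc05g005290, -2.61) were larger, neither passing. With 0.1 added in place of 0.5 those were -3.06 and -2.97, against -2.87 for the glucosidase gene. The Poly [ADP-ribose] polymerase gene, at 0.196 ± 0.167 RPKM in slful SFIM and 3.34 ± 0.366 RPKM in slful VM, against 0.0446 ± 0.0399 RPKM in WT SFIM and 0.129 ± 0.0179 RPKM in WT VM, had an interaction of -2.28 (SE 0.25 with adjusted p = 0.00239). With voom it was -2.61 and did not pass (adjusted p = 0.506).

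**Figure D5:**
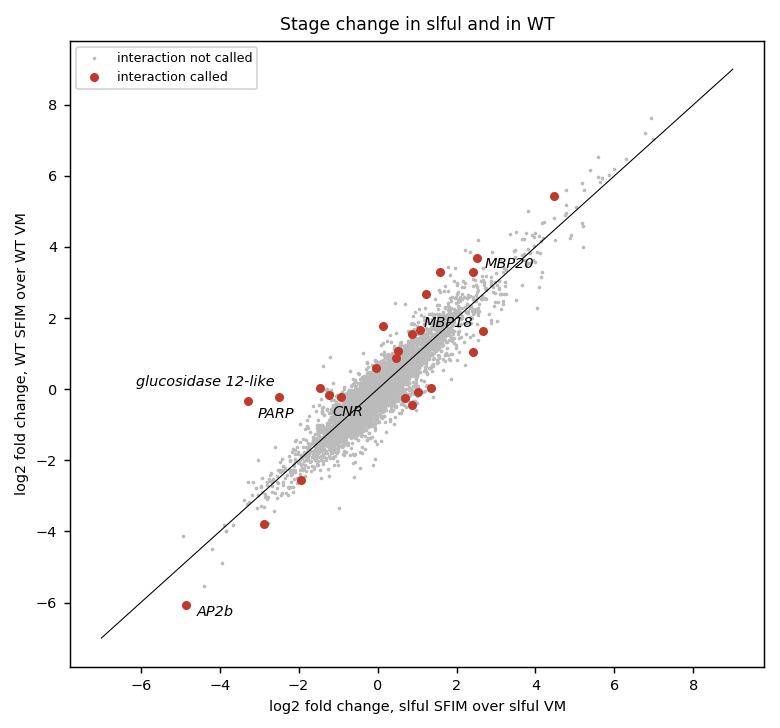
Log2 fold change of SFIM over VM in slful (horizontal axis) and in WT (vertical axis) for each tested gene, with the line of equal change; red points are the 25 genes with a called interaction, 6 of them named. Most genes lie along the line.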

How the data were processed

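The deposited table holds RPKM values for 34075 genes, reads per kilobase scaled by the authors to mapped reads, per the file headers and legend. The authors' sheets of slful versus WT (log2 fold change, signed fold, p-value, FDR) gave gene descriptions alone here; their values were not used. Aligner, build and strand use are not given in the sources used here, so overlapping and antisense genes are uncertain. Reads and lengths were recovered from the RPKM steps (25568 genes above 0, all whole within 0.001 reads). Tested genes reached 0.5 RPKM in 3 or more of 12 libraries (slful and WT at SFIM and VM). They were compared on log2(RPKM + 0.5) with limma 3.58.1 in R 4.3.3 (trend, a mean per group, two-sided); other steps used Python 3.11.15, numpy 2.4.6, pandas 2.3.3, scipy 1.17.1 and matplotlib. Folds against 0 reads are lower bounds against 3 reads per library; intervals and bounds cover counting error only. The fit was also run on simulated reads with far fewer changed genes than were called here. Its outcome is not given, so it is no support for the calls. In a gene of 1 kb, 1 read is 0.0329 to 0.0341 RPKM in the slful libraries.

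Named genes were the members of 20 ID lists (131 loci, 108 tested), up to 4 per word list (12 lists), the 15 largest called changes each way among described genes with non-overlapping groups and at least 1 RPKM in the higher stage, 2 each way without description, and the 10 smallest interaction adjusted p-values with a description. The members and lists were chosen with earlier results of these data known. Of the 131 loci, 21 had a deposited description, 72 had their symbol on the same chromosome in RefSeq (assembly SLM_r2.1), and 38 are counted and left unnamed. Alternatives were other filters, pseudocounts, library sets, weights, scalings, the replicate number as a block, each replicate left out, and, added after seeing the data, limma voom on recovered reads, genes of at least 500 bases and removal of a length trend. Same-numbered libraries did not deviate together, so replicate numbers were not taken as pairs.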

Additional observations from a re-analysis of the deposited data

Results flagged for a closer look

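The stage change differed between slful and WT, by the interaction test itself, in 12 of the genes named (limma, adjusted over all 18097 genes tested). The number 12 is set in part by the choice of genes. The named set took in the 10 genes with a description that had the smallest interaction adjusted p. Descriptions exist only for genes that the authors had listed as different between slful and WT. The difference in log2 fold change, slful minus WT, was -0.87 for MBP20 (2.43 in slful, 3.30 in WT), -0.67 for MBP18 (0.88 and 1.55), 1.21 for APETALA2b (-4.85 and -6.06) and -1.08 for CNR (-1.23 and -0.15). It was -2.96 for the 12-like gene of the glucan endo-1,3-beta-glucosidase family (Solyc12g040860) and -2.28 for the Poly [ADP-ribose] polymerase gene (Solyc05g005290), both near 0 in WT at both stages. A Protease inhibitor I gene (Solyc09g084460) gave -1.69, with 0 reads in slful VM, at least 6.68-fold higher in slful SFIM. Its WT VM libraries were near 0 too (1, 0 and 0 reads), so the -1.69 rests on the SFIM levels and the added 0.5. Those were 25, 15 and 19 reads in slful SFIM against 78, 96 and 101 in WT SFIM. With 0.1 added in place of 0.5 it did not pass (limma, adjusted p = 0.146). An HXXXD-type acyl-transferase gene (Solyc12g005430) gave -1.17 (2.51 and 3.68). An Acidic endochitinase gene (Solyc05g050130) gave -1.65, with 0.13 in slful, which did not pass there, and 1.78 in WT. NIT1 (Solyc08g078950) gave 1.33 (0.88 and -0.45), a hypothetical protein gene (Solyc04g077690) gave 0.96 (0.70 and -0.26), and Calmodulin-like 41 (Solyc03g044900) gave -1.48, on 3 reads over the slful SFIM libraries and 79 over the slful VM libraries (ratio 25.9, 95% exact interval 8.55 to 128), and was near 0 in WT at both stages.

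These calls depended on the setting to different degrees. MBP20 and the acyl-transferase gene passed in 24 of 25 settings each, failing in the fit of all 24 libraries (adjusted p = 0.318 and 0.685). APETALA2b passed in 21 of 25, with its highest adjusted p, 0.969, in that same fit. MBP18 passed in 9 of 25, with adjusted p from 0.0192 to 0.854. CNR, the endochitinase gene, NIT1 and the hypothetical protein gene passed in 13 of 25 settings each. The Protease inhibitor I, glucosidase and polymerase genes passed in 23 of 25, 24 of 25 and 22 of 24 settings, with their highest adjusted p, 0.757, 0.817 and 0.506, under limma voom, where Calmodulin-like 41, passing in 9 of 24, also had its highest, 0.272.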

How the results depend on the processing

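In slful, 8211 genes were called, with 5487 to 8876 under the 13 alternatives that kept all replicates of the groups compared and 6902 to 8553 when 1 of the 12 libraries was left out; past 2-fold the counts were 1347, 977 to 1847, and 1344 to 1377. None of these moved by over 1.5 times, nor did the WT counts of 8575 and 1500 genes (7302 to 8534 and 1471 to 1574 with 1 library left out). The interaction count of 25 moved to 16 with no filter on low values, 4 in the fit of all 24 libraries and 16 with limma voom, and past 2-fold its 14 genes became 7, 4 and 7 in those settings. Leaving out 1 library gave 8 to 35 interaction calls and 4 to 20 past 2-fold: 8 without slful VM replicate 2, 10 without slful VM replicate 3, 9 without WT VM replicate 1, and 16 without slful SFIM replicate 3 or WT SFIM replicate 3. Past 2-fold it was 5 without slful VM replicate 2 or 3, 9 without slful SFIM replicate 3, 4 without WT VM replicate 1 and 8 without WT VM replicate 3. With the replicate block within genotype there were 40 interaction calls, and 8024 slful calls; same-numbered SFIM and VM libraries had deviation correlations of 0.03, -0.02 and 0.03 in slful, and not every library correlated best with its own number. The cause of these shifts was not tested.

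Of 170 named genes tested in slful, 144 were called and 126 of these kept the call in every alternative run on that gene (at most 25), with 0 changes of direction. The planned edgeR and DESeq2 tests were not run, as the deposited unit is RPKM; limma voom was run on the recovered reads. At this depth, 0 reads in a 1 kb gene allow up to 0.0988 to 0.102 RPKM in a slful library.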
